A study of Mus musculus with 14 samples.

Results

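Epithelial to mesenchymal transition (EMT) was followed in mouse retinal pigment epithelium (RPE) through 10 genes of 42687 in the table of raw counts: the simple epithelial keratins Krt8 and Krt18, the mesenchymal filament gene Vim, the transcription factors Snai1, Snai2, Zeb1, Zeb2 and Twist1, the matrix gene Fn1, and S100a4. They were chosen by name as keratins and mesenchymal factors, and each was found in the table. RNA-seq had been performed on RPE cells of 14 male mice on a C57BL/6J background at 3 months of age, with 1 library for each mouse and both eyes of a mouse pooled. The KO mice lack the chloride intracellular channel gene Clic4 in the RPE and serve the study as a model of dry age-related macular degeneration, so the comparison asks how loss of CLIC4 changes the epithelial and mesenchymal transcripts of these cells.

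The libraries formed 3 sets, and every set had separate KO animals, of the genotype Best1-Cre+/-; Clic4f/f. In the WT set 3 KO libraries faced 3 libraries of wild type mice. In the Ctrl set 2 KO libraries faced 2 of Clic4f/f littermates, which have the floxed alleles and no Cre. In the CreCtrl set 2 KO libraries faced 2 of Best1-Cre+/- mice, which have Cre and no floxed allele. The Best1 promoter is used to drive Cre in the RPE after birth, so other cells of a KO eye are not targeted. Control genotype and set cannot be told apart. The counts of a library summed to 9828293 at the lowest and 32384166 at the highest. Levels are given as CPM, the counts of a gene relative to the library total after scaling between the 14 libraries with edgeR's TMM factors. A gene was said to rise or fall where the adjusted P-value of edgeR's quasi-likelihood test (Benjamini-Hochberg over all genes tested) was under 0.05.

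In EMT, epithelial cells lose their junctions and keratin filaments and take on vimentin filaments, a fibronectin matrix and motility, usually under transforming growth factor beta. Snail, ZEB and Twist factors drive it by repressing epithelial genes such as E-cadherin (Cdh1), which the Snail and ZEB factors do by binding CACCTG letters in their promoters. RPE cells can undergo EMT in injured or diseased retina, and fibroblasts, vascular cells and macrophages of the neighbouring choroid express most of the same mesenchymal genes without any transition.

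Among the members, the keratins were higher and the mesenchymal genes lower in KO libraries than in controls, the direction opposite to EMT. Of 35 mesenchymal effectors tested outside the members, 29 fell as well. Some textbook genes went the other way: Cdh1 fell by 2.65 over all sets (adjusted P-value 0.0467, edgeR), and Cdh2 (N-cadherin) rose in KO vs. CreCtrl. Over all 14 libraries, with set as a covariate, 2 of the 9 members tested rose (Krt8 and Krt18) and 7 fell (Vim, Snai1, Snai2, Zeb1, Zeb2, Twist1 and Fn1), where 21.0% of the 14925 genes tested rose, 19.6% fell and 40.6% did either. S100a4 had too few reads for that test. The changes were largest in the WT set for the keratins and Vim, and in the other sets fewer members passed. The same libraries differed in marker transcripts of cell types. The summed CPM of 10 fibroblast markers was 1266 to 7919 in controls and 133 to 769 in KO libraries. That of 11 RPE markers was 12763 to 43967 in controls and 50297 to 63990 in KO libraries. The RPE marker Ttr alone had a median of 16780 CPM in controls and 34376 CPM in KO libraries. The medians of the RPE sum were 32510 and 54936 CPM. In bulk RNA, fewer cells of a type and less RNA per cell cannot be told apart.

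Promoter stretches of the Krt8 and Krt18 genes are shown because these rose together and stand side by side, and that of Snai1 because it holds the letters its own protein binds. The stretches are the bases before the annotated start, from the RefSeq promoter table (GRCm38.p6), 5′ to 3′ on the strand of the gene. Capitals mark CACCTG or its reverse complement CAGGTG.
Krt8, chr15:102004483-102004592, minus strand: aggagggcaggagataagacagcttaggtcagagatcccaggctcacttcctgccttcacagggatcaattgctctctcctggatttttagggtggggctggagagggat
Krt18, chr15:102027966-102028179, plus strand: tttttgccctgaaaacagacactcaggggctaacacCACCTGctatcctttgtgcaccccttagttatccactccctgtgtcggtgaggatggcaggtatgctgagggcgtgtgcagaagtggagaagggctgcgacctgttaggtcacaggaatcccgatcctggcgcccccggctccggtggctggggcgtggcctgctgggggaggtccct
Snai1, chr2:167537945-167538194, plus strand: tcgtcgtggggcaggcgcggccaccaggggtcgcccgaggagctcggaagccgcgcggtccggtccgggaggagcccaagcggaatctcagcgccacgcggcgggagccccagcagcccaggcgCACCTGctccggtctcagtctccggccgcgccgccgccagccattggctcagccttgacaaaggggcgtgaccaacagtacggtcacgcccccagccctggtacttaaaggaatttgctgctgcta

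The letters were searched on both strands from 250 bases before to 50 bases after the RefSeq start. Of the 7 members with an entry, 3 held them (Krt8, Krt18 and Snai1), and the other 4 (Vim, Zeb2, S100a4 and Twist1) did not. Over the table, 22.6% of 27025 gene symbols and 20.2% of 32851 entries held them. The first base of the match was at -214 from the start in Krt18, at -126 in Snai1 and at -111 in Krt8, where it lies outside the stretch shown. A match describes the letters only, and the binding of a factor was not measured. Entries for Snai2, Zeb1 and Fn1 were not found.

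Krt8 (ENSMUSG00000049382, chr15:101996698-102004482, minus strand, 9 exon blocks) and Krt18 (ENSMUSG00000023043, chr15:102028180-102032027, plus strand, 7 exon blocks) encode the type II and type I keratins that pair into the filaments of simple epithelia, RPE among them. Their starts lie 23698 bases apart and face away from each other. Krt8 was at 67.2, 82.8 and 103 CPM in the WT libraries and at 446, 518 and 408 CPM in the KO libraries of that set. Ctrl libraries had 130 and 107 CPM and their KO libraries 206 and 147 CPM. In the CreCtrl set it was at 257 and 187 CPM in CreCtrl and 288 and 324 CPM in KO. Within each set every KO library lay above every control library, while over the sets the ranges overlapped, with CreCtrl libraries, at up to 257 CPM, reaching above the KO libraries of the Ctrl set. The log2 fold change was 2.34 (standard error 0.19) in KO vs. WT, with an adjusted P-value of 6.03e-05 from edgeR's test. It was 0.58 (standard error 0.27, adjusted P-value 0.506) in KO vs. Ctrl and 0.48 (standard error 0.21, adjusted P-value 0.14) in KO vs. CreCtrl by the same edgeR test.

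Krt18 was the most abundant member per kilobase of exon in every group, although in CPM the WT libraries had more Vim. It was at 431, 474 and 475 CPM in WT and at 1433, 1603 and 1434 CPM in KO libraries of the WT set. It stood at 837 and 647 CPM in Ctrl and 1104 and 1084 CPM in their KO libraries, and in the CreCtrl set at 1035 and 858 CPM in CreCtrl and 1058 and 1114 CPM in KO. Every one of the 7 KO libraries lay above every one of the 7 controls, although the highest control and the lowest KO library, both of the CreCtrl set, nearly met. Krt18 rose by 1.60 on the log2 scale (standard error 0.12, adjusted P-value 5.18e-05, edgeR) in KO vs. WT. It differed by 0.56 (standard error 0.26) in KO vs. Ctrl and by 0.21 (standard error 0.20) in KO vs. CreCtrl, neither past the threshold (adjusted P-value 0.52 and 0.47, edgeR). With library size alone as the scaling, the last value was -0.01. Over all sets the log2 fold change was 1.33 (standard error 0.30, adjusted P-value 0.00368, edgeR) for Krt8 and 0.94 (standard error 0.22, adjusted P-value 0.00393, edgeR) for Krt18.

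The keratin pair did not keep a fixed ratio. Counts per kilobase of Krt18 were 7.60 ± 1.25 times those of Krt8 in WT (SD, n = 3) and 4.46 ± 0.294 times in the KO libraries of that set (SD, n = 3), with no overlap. In the CreCtrl set the ratio was 5.5 to 6.26 in controls and 4.68 to 5 in KO libraries, again without overlap. KO libraries of the Ctrl set spanned 7.29 to 10 and enclosed both controls at 8.25 and 8.80. These ratios were described without a test.

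Vim (ENSMUSG00000026728, chr2:13573927-13582826, plus strand, 7 exon blocks) encodes the type III filament protein of mesenchymal cells, which some epithelial cells, RPE included, also express. It was at 636, 783 and 577 CPM in WT and at 163, 169 and 127 CPM in KO libraries of the WT set. Ctrl libraries had 304 and 219 CPM and their KO libraries 151 and 169 CPM. CreCtrl libraries had 225 and 277 CPM, and their KO libraries, with 3592 and 4386 counts, averaged 147 ± 2.18 CPM (SD, n = 2). All 7 KO libraries were below all 7 controls. They also held to a narrow range, with 153 ± 15.2 CPM (SD, n = 7) against 432 ± 229 CPM in controls (SD, n = 7), and the spread of the controls came from the WT libraries. Vim fell by 2.21 on the log2 scale (standard error 0.17, adjusted P-value 4.84e-05, edgeR) in KO vs. WT and by 0.77 (standard error 0.17, adjusted P-value 0.0319, edgeR) in KO vs. CreCtrl. In KO vs. Ctrl the log2 difference was -0.71 (standard error 0.26, adjusted P-value 0.345, edgeR). The call in KO vs. CreCtrl was lost without KO replicate 1 (adjusted P-value 0.124, edgeR) and without KO replicate 2 (adjusted P-value 0.142, edgeR).

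The ratio of keratin to vimentin within a library does not depend on the scaling between libraries. Counts per kilobase of Krt8 and Krt18 together were 2.49, 2.25 and 3.16 times those of Vim in WT and 35.6, 38.8 and 45.1 times in the KO libraries of the WT set. They were 10.1 and 10.9 times in Ctrl and 27.3 and 23.2 times in the KO libraries of that set. They were 17.9 and 11.9 times in CreCtrl and 28.9 and 30.1 times in the KO libraries of that set. The lowest KO library, at 23.2, was above the highest control, at 17.9. Among controls the WT libraries stood far below the Ctrl and CreCtrl libraries, so the distance between control and KO was widest in the WT set.

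**Figure D1:**
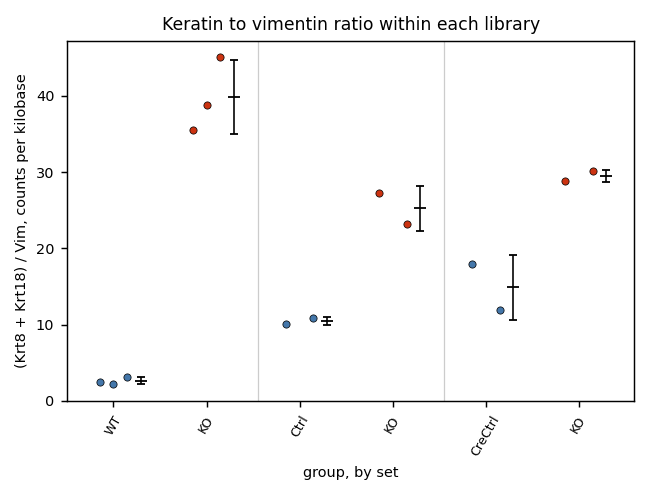
The ratio of counts per kilobase of Krt8 plus Krt18 to those of Vim is plotted for each library (points; blue for controls, red for KO) with the mean and SD of each group, the sets separated by grey lines. Controls run from 2.25 to 17.9 and KO libraries from 23.2 to 45.1.

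Fn1 (ENSMUSG00000026193, chr1:71585520-71653200, minus strand, 45 exon blocks) encodes fibronectin, a matrix glycoprotein that cells deposit in EMT and that fibroblasts produce in large amounts. It was at 369, 627 and 484 CPM in WT and at 27.7, 9.47 and 11.6 CPM in the KO libraries of that set. Values were 42.7 and 106 CPM in Ctrl and 2.25 and 13.3 CPM in their KO libraries, and 67.0 and 116 CPM in CreCtrl against 5.53 and 11.6 CPM in KO. Every KO library was below every control. Its fall was the largest of the members, by 5.01 on the log2 scale (standard error 0.44, adjusted P-value 8.72e-05, edgeR) in KO vs. WT. It fell by 3.39 (standard error 0.41, adjusted P-value 0.00598, edgeR) in KO vs. CreCtrl, and in KO vs. Ctrl the log2 difference was -3.25 (standard error 0.89, adjusted P-value 0.193, edgeR). Its exons share 292 bases with Apol7d on the opposite strand, which had at most 5 counts in a library.

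Of the transcription factors, Twist1 (ENSMUSG00000035799, chr12:33957671-33959829, plus strand, 2 exon blocks), a basic helix-loop-helix factor, was at 56.6, 33.2 and 36.2 CPM in WT and 5.17, 0.0702 and 1.14 CPM in KO libraries of the WT set. Ctrl libraries had 12.4 and 4.92 CPM and their KO libraries 0.0644 and 2.31 CPM, and the CreCtrl set had 7.17 and 13 CPM in CreCtrl and 0.605 and 1.86 CPM in KO. The KO libraries were below the controls in each set, and 1 of them (5.17 CPM, KO replicate 1 of the WT set) passed the lowest control of another set. KO libraries with 0.0702 and 0.0644 CPM had 1 count each. Twist1 fell by 4.38 on the log2 scale in KO vs. WT (standard error 0.90, adjusted P-value 0.00559, edgeR) and by 2.98 in KO vs. CreCtrl (standard error 0.58, adjusted P-value 0.0207, edgeR). In KO vs. Ctrl the log2 difference was -2.85 (standard error 1.30, adjusted P-value 0.501, edgeR).

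Snai1 (ENSMUSG00000042821, chr2:167538195-167542814, plus strand, 3 exon blocks) encodes Snail, the zinc finger repressor of Cdh1. It was at 24.7, 18.5 and 33.6 CPM in WT and 2.11, 5.4 and 1.54 CPM in KO libraries of the WT set. It read 6.68 and 6.53 CPM in Ctrl and 0.193 and 3.73 CPM in their KO libraries, and in the CreCtrl set 6.36 and 2.76 CPM in CreCtrl and 0.161 and 1.15 CPM in KO. The KO libraries lay below the controls in each set, and spread widely between mice within the Ctrl and CreCtrl sets. Snai1 fell by 3.19 on the log2 scale in KO vs. WT (standard error 0.50, adjusted P-value 0.00144, edgeR). The log2 difference was -1.74 (standard error 1.14, adjusted P-value 0.72, edgeR) in KO vs. Ctrl and -2.75 (standard error 0.84, adjusted P-value 0.0627, edgeR) in KO vs. CreCtrl.

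Snai2 (ENSMUSG00000022676, chr16:14705852-14709385, plus strand, 3 exon blocks) encodes Slug, the close relative of Snail, and was scarce. It was at 5.88, 6.33 and 8.07 CPM in WT, while the KO libraries of that set had 20, 1 and 0 counts, or 1.36, 0.0702 and 0 CPM. With no read seen, counting error alone leaves room for as many as 3 counts, or 0.185 CPM in that library. Levels were 2.29 and 5.28 CPM in Ctrl and 0.0644 and 0.355 CPM in their KO libraries, and in the CreCtrl set 1.54 and 0.836 CPM in CreCtrl and 0.283 and 0.405 CPM in KO. Again no KO library reached a control of its own set. Snai2 fell by 3.89 on the log2 scale in KO vs. WT (standard error 1.29, adjusted P-value 0.0454, edgeR), a call that was lost without any one of the WT libraries or without KO replicate 2 or 3 (adjusted P-value from 0.0621 to 0.124, edgeR). The log2 difference was -4.12 (standard error 1.00, adjusted P-value 0.155, edgeR) in KO vs. Ctrl, where DESeq2's Wald test gave an adjusted P-value of 0.00404, and -1.77 (standard error 0.67, adjusted P-value 0.0992, edgeR) in KO vs. CreCtrl.

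The ZEB factors, zinc finger and homeodomain repressors that are also expressed in mesenchymal, vascular and immune cells, changed least. Zeb1 (ENSMUSG00000024238, chromosome 18, 16 exon blocks) was at 48.7, 67.9 and 60 CPM in WT and 29.1, 24.1 and 20.7 CPM in KO libraries of the WT set. Ctrl libraries, at 38.4 and 31.1 CPM, and their KO libraries, at 35.3 and 29.5 CPM, overlapped, while CreCtrl libraries, at 36.3 and 48.3 CPM, and theirs, at 26.8 and 29.3 CPM, did not. Zeb1 fell by 1.35 on the log2 scale in KO vs. WT (standard error 0.20, adjusted P-value 0.000974, edgeR). Its log2 difference was -0.10 (standard error 0.26, adjusted P-value 0.96, edgeR) in KO vs. Ctrl and -0.58 (standard error 0.19, adjusted P-value 0.0715, edgeR) in KO vs. CreCtrl. Its exons share 198 bases with Gm10125 on the opposite strand, which had 10 to 59 counts.

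Zeb2 (ENSMUSG00000026872, chr2:44983632-45117395, minus strand, 18 exon blocks) was at 79.3, 62.6 and 59.8 CPM in WT and 32.2, 33.8 and 33.9 CPM in KO libraries of the WT set. Levels were 58.3 and 89.0 CPM in Ctrl and 55.0 and 70.1 CPM in their KO libraries, and in the CreCtrl set 54.0 and 59.7 CPM in CreCtrl and 53.2 and 56.6 CPM in KO. Outside the WT set its ranges overlapped. Zeb2 fell by 1.11 on the log2 scale in KO vs. WT (standard error 0.15, adjusted P-value 0.000703, edgeR), and its log2 difference was -0.24 (standard error 0.29, adjusted P-value 0.893, edgeR) in KO vs. Ctrl and -0.04 (standard error 0.15, adjusted P-value 0.868, edgeR) in KO vs. CreCtrl. Over all sets it fell by 0.51 (standard error 0.16, adjusted P-value 0.0216, edgeR), a call that was lost without any 1 of the 3 KO libraries of the WT set (adjusted P-value 0.0549 to 0.0573, edgeR). It shares 653 exon bases with Zeb2os on the opposite strand, which had 0 to 93 counts.

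S100a4 (ENSMUSG00000001020, chr3:90603771-90606045, plus strand, 3 exon blocks), a calcium-binding protein also known as fibroblast-specific protein, was close to the detection limit. It had 15, 5 and 15 counts in WT and 2, 6 and 0 in the KO libraries of that set, 13 and 22 in Ctrl and 4 and 0 in their KO libraries, 1 and 1 in CreCtrl and 0 and 0 in their KO libraries. Controls had at most 1.28 CPM and KO libraries at most 0.421 CPM. S100a4 was tested in KO vs. Ctrl alone, where its log2 difference was -2.65 (standard error 1.36, adjusted P-value 0.588, edgeR). In the CreCtrl set both groups were below the limit of 3 counts, and no fold is given. It shares 302 of its 584 exon bases with Gm42674 on the same strand, which had 0 counts in every library. How reads in the shared bases were counted is not given in the sources used here. Their part in the low counts of S100a4 was not tested.

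**Figure D2:**
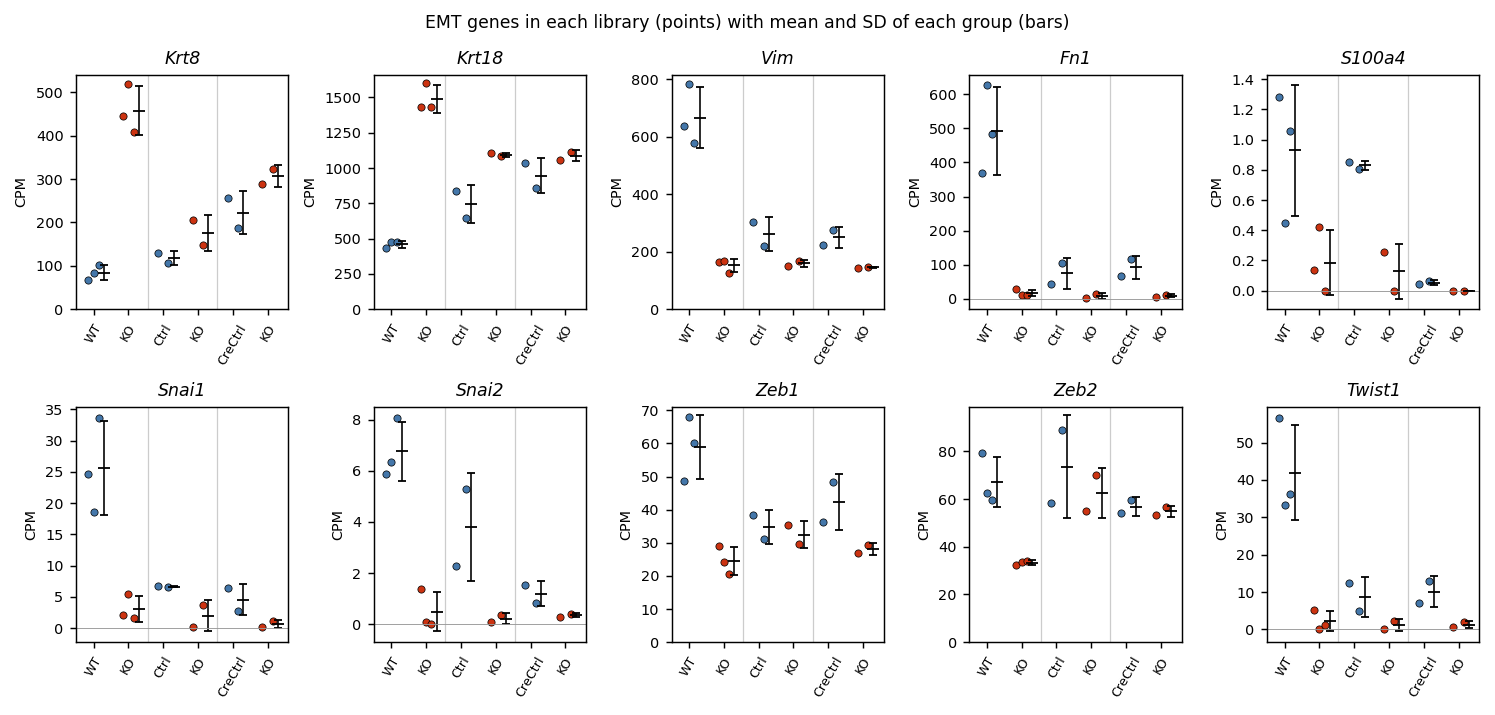
CPM of each of the 10 genes is plotted for each of the 14 libraries (points; blue for controls, red for KO) with the mean and SD of each group as bars beside them, on a linear axis that differs between panels. Krt18 is higher, and Vim and Fn1 lower, in all 7 KO libraries than in all 7 controls (Krt18 at least 1058 CPM in KO and at most 1035 CPM in controls).

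The members did not stand in the same order in both arms. Per kilobase of exon, the mean order in controls was Krt18 (473 CPM per kilobase), Vim (91.0), Krt8 (68.1), Fn1 (22.1), Twist1 (14.3), Snai1 (8.74), Zeb1 (4.6), Zeb2 (3.31), Snai2 (2.14) and S100a4 (1.11), and from Vim downward each neighbour overlapped the next over the 7 libraries. In KO libraries Krt18 (878 CPM per kilobase), Krt8 (171) and Vim (32.3) led without overlap, and Zeb1 (2.71) and Zeb2 (2.40) came next. Snai1 (1.26), Fn1 (0.996), Twist1 (0.984), S100a4 (0.199) and Snai2 (0.179) followed, each overlapping its neighbour. Of the control groups, WT had more Vim than Krt8 (140 against 43.2 CPM per kilobase), whereas Krt8 was above Vim in CreCtrl (113 against 52.9) and overlapped it in Ctrl (60.4 against 55.2), so Vim and Krt8 changed places in the WT set and not in the CreCtrl set. By their means, Fn1 and Twist1 stood above the ZEB factors in each control group and below them in the KO libraries of each set.

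Set by set, all 9 members tested in KO vs. WT passed, 2 higher and 7 lower, where 16.1% of 15428 genes rose, 19.0% fell and 35.1% did either. In KO vs. CreCtrl 3 of 9 passed, all lower (Vim, Twist1 and Fn1), where 3.60% of 15963 genes rose, 12.2% fell and 15.8% did either. Against Ctrl, 0 of 10 members and 0% of 15287 genes passed by edgeR. An unadjusted P-value under 0.05 was reached by 3 members (Vim, Snai2 and Fn1) and 12.1% of genes, and DESeq2 called 1 member (Snai2). The share of all genes that DESeq2 called is not given here. On simulated data for this set DESeq2 made 38 false calls beside 62 changed genes recovered. A two-sided exact permutation test of a single gene cannot give less than 0.1 for 3 libraries against 3 or 0.333 for 2 against 2. The split between directions depends on the scaling. Of the genes called in KO vs. WT 45.9% were higher with TMM and 30.3% with library size alone, in KO vs. CreCtrl 22.7% and 7.36%, and over all sets 51.7% and 25.7%. Library size alone moved the median of all genes by -0.24 on the log2 scale in KO vs. WT and over all sets, by -0.22 in KO vs. CreCtrl and by -0.12 in KO vs. Ctrl. The number of members called was then 9, 9, 4 and 0 in that order, with Zeb1 added in KO vs. CreCtrl (log2 fold change -0.81, adjusted P-value 0.0328, edgeR).

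Non-overlap was frequent with so few libraries. KO libraries lay wholly above controls for 2 members and wholly below for 7 of the 9 tested in the WT set (27.2% and 25.6% of all genes tested), for 2 and 6 of 10 in the Ctrl set (18.3% and 22.8%), and for 2 and 6 of 9 in the CreCtrl set (34.5% and 37.0%). Of the 9 members tested over all sets, 1 was wholly above (Krt18) and 2 wholly below (Vim and Fn1), against 3.70% and 5.40% of genes.

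**Figure D3:**
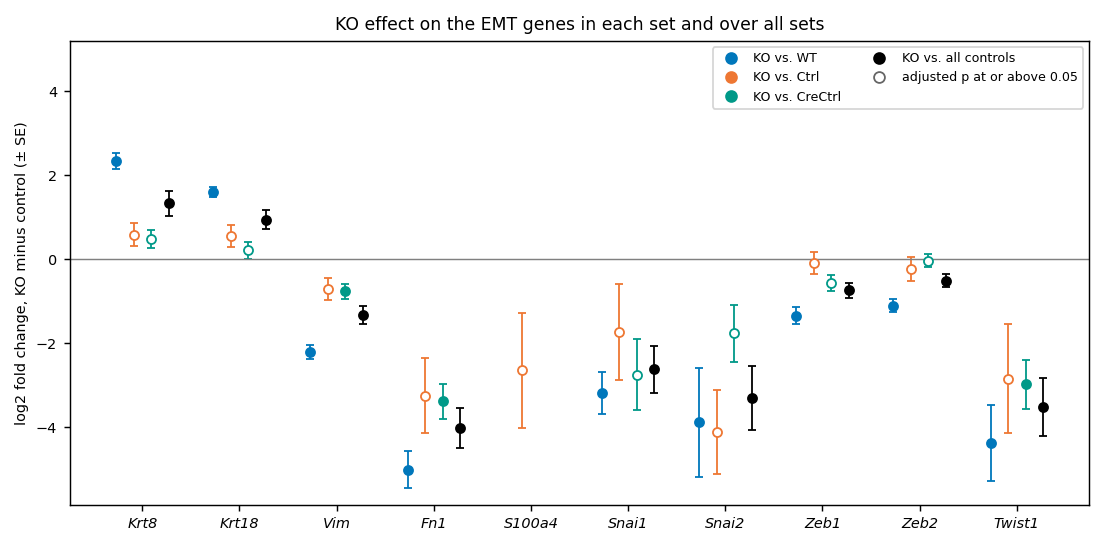
The log2 fold change of KO against control (vertical axis, bars give the standard error) is plotted for each gene in KO vs. WT, KO vs. Ctrl, KO vs. CreCtrl and over all sets, filled where the adjusted P-value was under 0.05. The keratins lie above 0 and the mesenchymal genes below it in each comparison (with library size alone as the scaling, Krt18 in KO vs. CreCtrl was at -0.01), with Zeb1 at -0.10 in KO vs. Ctrl and Zeb2 at -0.04 in KO vs. CreCtrl closest to 0; S100a4 was tested in KO vs. Ctrl only.

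Whether the KO effect differed between sets was tested in a fit of all 14 libraries as 6 groups. For Krt8 the log2 fold change was larger in the WT set than in the Ctrl set by 1.90 (standard error 0.31, adjusted P-value 0.0111, edgeR) and than in the CreCtrl set by 1.97 (standard error 0.31, adjusted P-value 0.0197, edgeR). For Krt18 the differences were 1.18 (standard error 0.23, adjusted P-value 0.0161, edgeR) and 1.50 (standard error 0.23, adjusted P-value 0.0187, edgeR). For Vim they were -1.37 (standard error 0.27, adjusted P-value 0.0169, edgeR) and -1.34 (standard error 0.27, adjusted P-value 0.0341, edgeR), a larger fall in the WT set. These 3 of the 10 members passed in each contrast, where 5.15% and 1.49% of 17662 genes did. For Zeb1 and Zeb2 the differences to the Ctrl set were -1.12 (standard error 0.30, adjusted P-value 0.0508, edgeR) and -0.73 (standard error 0.28, adjusted P-value 0.144, edgeR), short of the threshold. Between the CreCtrl and Ctrl sets 0 of 10 members and 0% of genes passed by edgeR's test, with 0 members at an unadjusted P-value under 0.05. The set whose effect was larger also had the controls with the least RPE and the most fibroblast transcript: summed RPE markers were 12763 to 19534 CPM in WT and 32510 to 43967 CPM in Ctrl and CreCtrl libraries, and summed fibroblast markers 7807 to 7919 CPM in WT and 1266 to 2696 CPM in Ctrl and CreCtrl libraries. The part of these markers in the difference between sets was not tested.

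All 11 RPE markers were detected in every library, as the tissue label says. The marker counts below stand against shares of all genes tested. Over all sets 21.0% rose and 19.6% fell, in KO vs. WT 16.1% and 19.0%, in KO vs. CreCtrl 3.60% and 12.2%, and in KO vs. Ctrl 0% passed. Over all sets 7 of 11 rose, among them Rpe65, the retinoid isomerase, by 1.18 on the log2 scale (standard error 0.24). Best1, the bestrophin channel gene whose promoter drives the Cre, fell by 1.04 (standard error 0.38, adjusted P-value 0.0411, edgeR). Best1 was scarce, at 1.17 to 6.15 CPM in controls and 1.22 to 2.78 CPM in KO libraries, with overlapping ranges. It passed in no single set. Its log2 difference was -1.82 for the WT set (adjusted P-value 0.0616, edgeR) and -1.11 for the CreCtrl set (adjusted P-value 0.105, edgeR). For the Ctrl set it was 0.08 (adjusted P-value 0.988, edgeR). In KO vs. WT 9 of 11 RPE markers rose and 0 fell (median 1.37). In KO vs. CreCtrl 1 rose and 1 fell (median 0.36), and in KO vs. Ctrl 0 passed by edgeR's test (median 0.31). Transcripts of other cells were present as well. All 10 fibroblast markers fell (median log2 fold change -3.65 against 0.01 over all genes), as did 10 of 10 endothelial markers (median -2.73), 9 of 11 myeloid markers (median -2.60) and 5 of 7 pericyte and smooth muscle markers (median -2.93). In the last 2 lists 1 marker each rose, Csf1r by 0.48 (standard error 0.11) and Cspg4 by 0.27 (standard error 0.09), both named after their values were seen. Of 7 Schwann cell markers 2 fell and 1 rose (median -0.29 over the 6 tested). Of the fibroblast markers 10 of 10 fell in KO vs. WT and 8 of 10 in KO vs. CreCtrl. In KO vs. Ctrl 0 of 10 passed by edgeR's test (median -2.98). The median log2 difference of the myeloid markers was -0.06 in KO vs. Ctrl, against -3.76 in KO vs. WT and -2.86 in KO vs. CreCtrl. Of 8 rod markers 0 passed over all sets by edgeR's test and 0 had an unadjusted P-value under 0.05 (median -0.27), but in KO vs. CreCtrl, where Vim, Twist1 and Fn1 passed, all 8 fell (median -3.13), with sums of 916 and 4385 CPM in CreCtrl and 336 and 211 CPM in KO. In the WT libraries collagen and other fibroblast markers were as a sum 7807 to 7919 CPM, and no fibroblast, endothelial or RPE marker was at 0 counts throughout a group. The 8 immediate-early genes, which cells induce within minutes of handling or injury, all fell over the sets (median -3.23), from 3843 to 13270 CPM as a sum in controls to 257 to 1720 CPM in KO libraries. The part of these markers in the changes of the members was not tested.

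Set against the markers of each library, the members are described here by ratios chosen after the values were seen. Among the RPE markers Ttr had the most counts in each library, so ratios to their sum depend largely on that gene. Per 1000 counts of the RPE markers the median of Krt8 was 5.27 in controls and 5.92 in KO libraries, and that of Krt18 was 24.1 and 21.9, with overlapping ranges for both. On that scale Krt8 was still higher in the WT set, at 5.27 to 5.40 in WT and 7.38 to 8.10 in KO libraries, and Krt18 was not, at 24.3 to 33.7 in WT and 25.1 to 25.9 in KO libraries. In the CreCtrl set Krt18 was lower in KO, at 21.6 to 23.5 in CreCtrl and 20.4 to 20.7 in KO libraries. Per 1000 counts of the fibroblast markers the median of Snai1 was 3.14 in controls and 3.25 in KO libraries, that of Snai2 0.936 and 0.939, that of Twist1 4.82 and 4.21 and that of Fn1 50.5 and 32.9, all with overlapping ranges over the 14 libraries. Within the sets Snai1, Snai2 and Twist1 overlapped as well, while Fn1 was lower in KO libraries of the WT set (46.8 to 80.4 in WT, 29 to 42.8 in KO) and of the CreCtrl set (43.2 to 50.5 in CreCtrl, 18.4 to 32.9 in KO). On the same scale Vim went from 103 to 482 and Zeb1 from 15.7 to 83.1 without overlap, and Zeb2 from 22.2 to 160, with overlap over the 14 libraries and none within a set (7.55 to 10.1 in WT and 41.8 to 125 in KO, 23.8 to 70.3 in Ctrl and 221 to 413 in KO, 22.2 to 40.7 in CreCtrl and 160 to 177 in KO). Relative to the sum of the fibroblast markers, Vim, Zeb1 and Zeb2 were thus higher in KO libraries of each set. Krt8, with medians of 52.9 and 958, and Krt18, with 318 and 3519, were higher in KO without overlap. Per 1000 counts of the RPE markers the KO medians were lower without overlap for Vim (8.78 and 2.84) and Zeb1 (1.22 and 0.524). The same held for Twist1 (0.357 and 0.0206) and Fn1 (3.25 and 0.21). Snai1 (0.201 and 0.0279), Snai2 (0.162 and 0.00553) and Zeb2 (2.74 and 1.04) were lower with overlap.

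**Figure D4:**
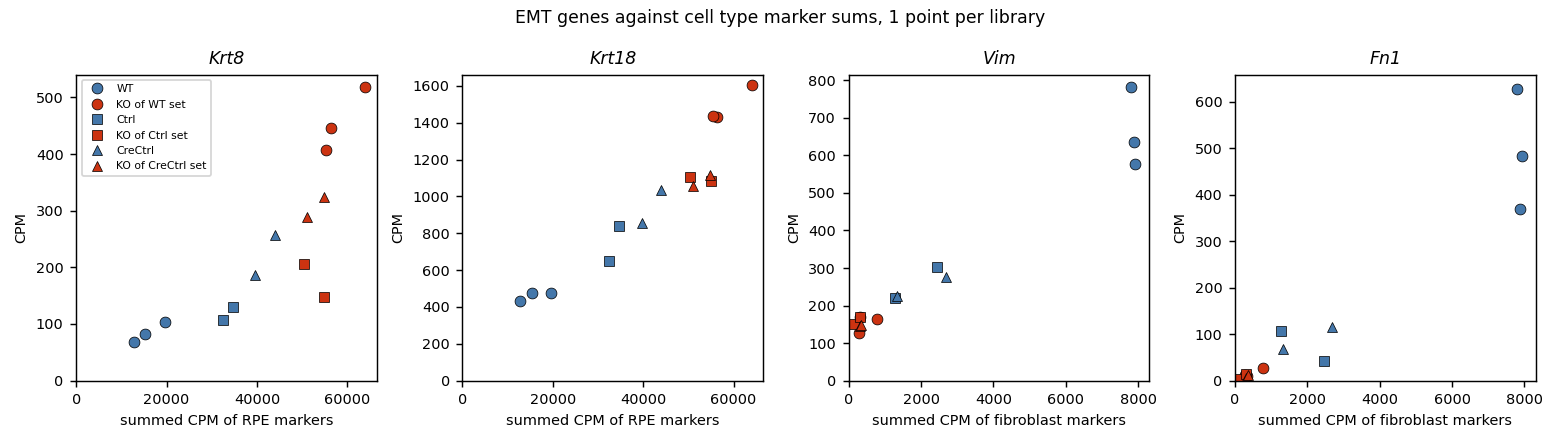
CPM of Krt8 and Krt18 is plotted against the summed CPM of 11 RPE markers, and CPM of Vim and Fn1 against the summed CPM of 10 fibroblast markers, 1 point for each library (blue for controls, red for KO; circles for the WT, squares for the Ctrl and triangles for the CreCtrl set). The WT libraries, with at most 19534 CPM of RPE markers and at least 7807 CPM of fibroblast markers, lie at the opposite end from the KO libraries in all 4 panels.

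The other genes of the EMT programme, taken from lists of known members, went mostly down where they mark mesenchyme. The counts of each list stand against 21.0% of all genes that rose and 19.6% that fell over all sets, 16.1% and 19.0% in KO vs. WT, and 3.60% and 12.2% in KO vs. CreCtrl. In KO vs. Ctrl 0% passed, and 12.1% had an unadjusted P-value under 0.05 by edgeR's test. Of 36 mesenchymal effectors, 35 were tested over all sets, 29 fell and 1 rose (median log2 fold change -2.13). In KO vs. WT 28 fell and 1 rose of 36 (median -2.78), in KO vs. CreCtrl 25 fell and 2 rose of 35 (median -2.38), and in KO vs. Ctrl 0 of 35 passed (median -1.48), with 18 at an unadjusted P-value under 0.05 by edgeR's test. Col1a1 and Col1a2, the chains of type I collagen, fell by 3.84 and 3.74 on the log2 scale over all sets, and Tagln, the smooth muscle actin-binding transgelin, fell by 4.40. Bgn, the small proteoglycan biglycan, fell by 3.48, from a median of 582 CPM in controls to one of 69.1 CPM in KO libraries. Sparc, an abundant matricellular gene, fell by 0.56, with 440 to 1141 CPM in controls and 417 to 515 CPM in KO libraries. The gene that rose was Itgav, the integrin alpha V subunit through which RPE cells bind photoreceptor tips, by 1.24 (137 to 807 CPM in controls, 449 to 1142 CPM in KO libraries). In KO vs. CreCtrl Itgav rose by 1.32 (adjusted P-value 0.0276, edgeR) and Cdh2, the N-cadherin, by 1.10 (adjusted P-value 0.0368, edgeR). Over all sets Cdh2 and Acta2 differed by 0.67 and 0.53, short of the threshold. The list shares Col1a1, Col1a2, Col3a1 and Pdgfra with the 10 fibroblast markers.

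Of 14 further EMT transcription factors, 10 were tested over all sets, 7 fell and 1 rose (median log2 fold change -1.48). Prrx1, a factor of embryonic mesenchyme, fell by 3.91 on the log2 scale. Foxc1, a forkhead factor of the periocular mesenchyme, fell by 3.76. Tcf12, a widely expressed partner of Twist factors, fell by 0.43. Sox9, which is expressed in RPE and retinal glia, rose by 0.75 (83.2 to 360 CPM in controls, 215 to 400 CPM in KO libraries). In KO vs. WT 8 of 11 fell and 1 rose (median -2.33), in KO vs. CreCtrl 6 of 11 fell and 0 rose (median -1.22, 7 in all at an unadjusted P-value under 0.05), and in KO vs. Ctrl 0 of 10 passed (median -1.19), with 4 at an unadjusted P-value under 0.05 by edgeR's test.

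Of 24 inducers and response genes of the transforming growth factor beta family, 23 were tested over all sets, 17 fell and 3 rose (median -1.36). The ligand Tgfb3 fell by 2.94 on the log2 scale, and the response genes Ccn2, a matricellular growth factor, and Tgfbi fell by 3.56 and 3.49. Ccn2 ran from 141 to 3333 CPM in controls and from 18.2 to 146 CPM in KO libraries. Bmp4 and Bmp7, ligands of the bone morphogenetic branch, rose by 0.78 and 0.90. In KO vs. WT 18 of 23 fell and 2 rose (median -1.86), in KO vs. CreCtrl 9 fell and 1 rose (median -0.31), and in KO vs. Ctrl 0 passed (median -1.06), with 10 at an unadjusted P-value under 0.05 by edgeR's test.

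Of 29 epithelial adhesion genes and regulators, 24 were tested over all sets, 6 rose and 2 fell (median -0.34), and the share that rose was near the 21.0% over all genes. Cldn1, a claudin of tight junctions, rose by 1.04 on the log2 scale and Cdh3, the P-cadherin that mouse RPE uses at its junctions, by 0.87. Cdh1 fell by 2.65 and Jup, the junctional plakoglobin, by 1.88. Cdh1 is the textbook target of the Snail, ZEB and Twist repressors, and it was at 12.5, 29.7 and 13.6 CPM in WT and 7.82, 15.5 and 3.15 CPM in the KO libraries of that set. It reached 24.2 and 194 CPM in Ctrl, with 0.579 and 0.118 CPM in their KO libraries, and in the CreCtrl set it was at 2.43 and 4.69 CPM in CreCtrl and 1.25 and 0.574 CPM in KO. Its KO libraries overlapped the controls in the WT set and lay below them in the Ctrl and CreCtrl sets, and Ctrl replicate 2 stood far above all others. The adjusted P-value of Cdh1 over all sets was 0.0467 (edgeR) and was above 0.05 in 10 of the 14 fits that left out 1 library (0.015 to 0.0914, log2 differences from -3.16 to -2.01) and with the replicate block (0.0643). In KO vs. WT 6 of 27 list members rose and 1 fell (median 0.49), in KO vs. CreCtrl 1 of 23 rose and 1 fell (median 0.27), and in KO vs. Ctrl 0 of 28 passed (median -4.42), with 19 at an unadjusted P-value under 0.05 by edgeR's test. Without the Ctrl set, an alternative chosen after the data were seen, 6 rose and 2 fell of 24, and the median over the sets was 0.45.

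The Ctrl libraries carried transcripts of a stratified epithelium. Summed over 8 markers of surface epithelium, Ctrl replicate 2 had 12612 CPM and Ctrl replicate 1 2162 CPM, while the KO libraries of their set had 12.7 and 4.32 CPM. WT replicate 2 had 1156 CPM, the KO libraries of the WT set 396 to 925 CPM, and the other libraries of the WT and CreCtrl sets at most 147 CPM. Krt5, the basal keratin, was at 899 and 4997 CPM in Ctrl, and Krt12, the keratin of corneal epithelium, was at 252 and 3916 CPM there and at most 6.14 CPM elsewhere. All 8 markers were lower in KO at an unadjusted P-value under 0.05 in KO vs. Ctrl, where 12.1% of all genes reached that in either direction. Of the 8 markers, 0 passed adjustment by edgeR's test. Krt8 and Krt18 were at 107 and 647 CPM in Ctrl replicate 2 and at 130 and 837 CPM in Ctrl replicate 1. The part of these transcripts in the keratin values and the epithelial lists was not tested.

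Of 25 other intermediate filament genes, 21 were tested over all sets, 1 rose and 6 fell (median log2 fold change -0.37, and 0.34 without the Ctrl set). Those named by size of change were Des, the desmin of muscle and pericytes, which fell by 3.39, Krt80, which fell by 2.86, and Synm, the desmin partner synemin, which fell by 2.25. Krt5 and Krt15, the most abundant of the list with Krt12, differed by -0.21 and -0.26 over all sets, short of the threshold. In KO vs. WT 1 of 20 rose and 5 fell (median 0.07), in KO vs. CreCtrl 5 of 21 fell (median -0.02), and in KO vs. Ctrl 0 of 22 passed (median -2.76), with 15 at an unadjusted P-value under 0.05 by edgeR's test. The list shares 5 keratins with the surface epithelium markers.

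Of 13 other S100 genes, 10 were tested over all sets, 1 rose and 5 fell (median -1.90). S100a6, a calcium-binding gene of fibroblasts and many other cells, fell by 3.34 (44.5 to 380 CPM in controls, 3.99 to 62.0 CPM in KO libraries), S100b, which marks glia, by 3.34 and S100a9, a neutrophil gene, by 2.95. S100a1 rose by 1.12 (135 to 398 CPM in controls, 315 to 725 CPM in KO libraries). In KO vs. WT 3 of 11 fell and 1 rose (median -2.06), in KO vs. CreCtrl 5 of 10 fell (median -1.16), and in KO vs. Ctrl 0 of 11 passed (median -1.49), with 6 at an unadjusted P-value under 0.05 by edgeR's test.

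**Figure D5:**
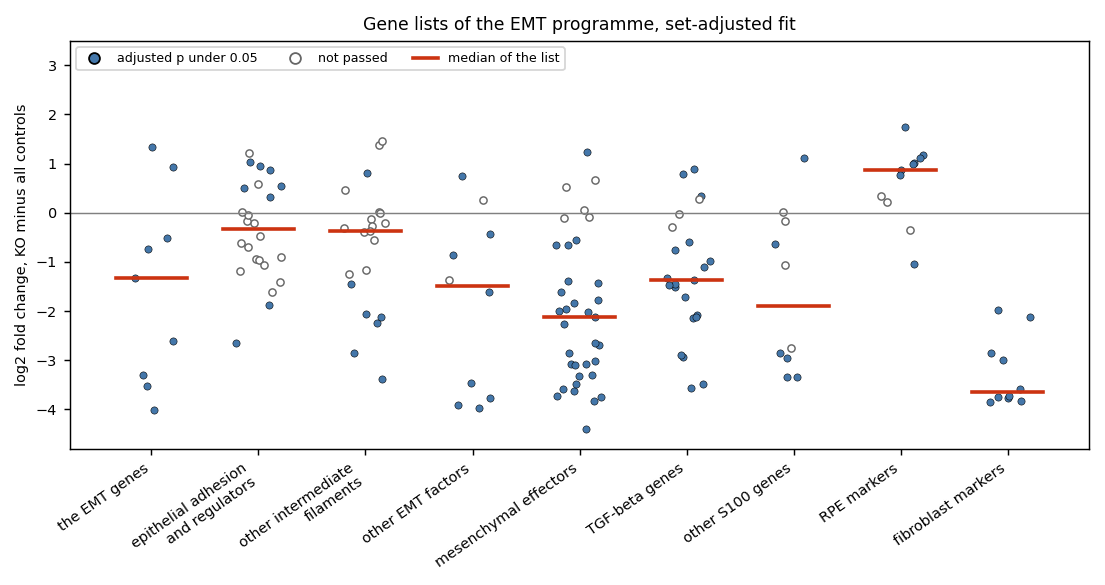
The log2 fold change over all sets (KO minus controls, set as covariate) is plotted for each tested gene of the members, the 6 related lists and the RPE and fibroblast markers, filled where the adjusted P-value was under 0.05, with the median of each list in red. The mesenchymal lists centre between -1.36 and -2.13, the fibroblast markers at -3.65 and the RPE markers at 0.86.

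Across the 14 libraries, the 5 genes outside the members whose log2 CPM ran most like that of Krt8 were Sod1 (Pearson's r = 0.981), Ckb (0.978), Pebp1 (0.977), Ndufb3 (0.976) and Cox4i1 (0.976), out of 14925 genes. Those most like Vim were Pam (0.985), Fzd1 (0.983), Cracr2b (0.979), Fmnl3 (0.977) and Fchsd2 (0.976). Among the members, Krt8 and Krt18 had r = 0.94, Vim had r = 0.91 with Fn1 and with Zeb1, 0.49 with Zeb2 and -0.91 with Krt18. These values are descriptions over libraries that fall into KO and control groups and share 1 scaling, and they carry no test.

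Clic4, the targeted gene (ENSMUSG00000037242), was at 225 to 238 CPM in WT and 18.0 to 33.1 CPM in their KO libraries, at 71.1 and 61.3 CPM in Ctrl and 9.65 and 33.6 CPM in KO, and at 86.3 and 109 CPM in CreCtrl and 13.4 and 29.6 CPM in KO. Each KO library was below the controls, as its label says, and the control levels were highest in WT, the group with the most fibroblast transcript.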

How the data were processed

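RPE cells were loosened from eyecups with hyaluronidase and trypsin, and stranded poly(A) libraries were sequenced on a NovaSeq6000 with paired-end reads. The authors mapped reads to the GRCm38 genome with STAR 2.5.2 and deposited raw counts per Ensembl gene. The submitters' processing notes also name bcl2fastq 2.19, Cufflinks 2.1.1 and HTSeq 0.11.2. The strand setting and annotation release of the counting are not given in the sources used here. Every column belonged to a library. Names, positions and exon lengths came from GENCODE M21 (42329 of 42687 genes matched).

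KO libraries were compared with controls of their own set, and over all sets with set as covariate, by edgeR 4.0.16 (estimateDisp, glmQLFit, glmQLFTest; TMM; filterByExpr; Benjamini-Hochberg; threshold 0.05) in R 4.3.3. The difference between sets used all 14 libraries as 6 groups. The script was tested on simulated data. For the Ctrl set edgeR recovered 14 of 192 changed genes with 1 false call, and DESeq2 62 of 200 with 38 false calls. For the CreCtrl set edgeR recovered 105 of 195 with 22 false calls. For the WT set and over all sets it recovered 87 of 185 and 123 of 192, with 5 false calls each. Alternatives were RLE normalization, library size alone, 2 other filters, DESeq2 1.42.0 (the study's tool), the replicate block and leaving out each library. P-values measure the spread between mice, since each library is 1 mouse. KO libraries were assigned to sets by how their titles are written.

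All 10 members were named. Of each related list, the 3 most abundant genes and the 3 with the largest change over all sets could be named. Some genes of these lists are counted but not reported here by name. The members and lists were chosen with earlier results of these data known. Cdh1, Rpe65 and Best1 are given in more detail as textbook markers. Cdh2 and Acta2 were named after their values were seen. The lowest depth, 9828293 counts, puts 3 counts at 0.305 CPM. log2 CPM used a prior count of 2. Python 3.11.15, numpy 2.4.6 and pandas 2.3.3 were used.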

Additional observations from a re-analysis of the deposited data

Results flagged for a closer look

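Among the 7 KO libraries, 1 of the WT set (replicate 1) was far from the rest in Snai2, at 1.36 CPM, as its gap to the next library took most of the whole range. 10 such checks were made, 1 for each member over the 7 KO libraries, and chance flags about 1 in 20. The same library had the most Twist1, Fn1 and fibroblast marker transcript of the KO libraries (5.17, 27.7 and 769 CPM).

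The KO effect differed between sets, by a test of the difference itself with edgeR, for the 3 filament genes among the members. For Krt8 the log2 fold change in the WT set exceeded that in the Ctrl set by 1.90 and that in the CreCtrl set by 1.97. For Krt18 it did so by 1.18 and 1.50. For Vim the differences were -1.37 and -1.34. In the WT set KO and control libraries did not overlap for any of the 3. Control genotype and set cannot be told apart here.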

How the results depend on the processing

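The directions of the 9 members tested in KO vs. WT and over all sets held under every alternative run. The number called there, 9 in the report for both, was from 7 to 9 and from 6 to 10, lowest where genes needed 10 counts in every library and highest with DESeq2, which also called S100a4. In KO vs. Ctrl the number of members called, 0 in the report, was 3 when all genes with at least 1 count were kept (Snai2, Twist1 and Fn1), 1 with DESeq2 (Snai2) and 1 with all 14 libraries as 6 groups (Fn1). The shares of all genes called under these alternatives are not given here, so these counts cannot be set against a background. In KO vs. CreCtrl the number, 3 in the report, was 5 with all genes of at least 1 count and 1 in the fit of 6 groups, which lost Vim and Twist1. With library size alone Zeb1 was called there as well. In WT minus Ctrl it was 5 with all genes of at least 1 count. Directions turned for Krt18 in KO vs. CreCtrl (-0.01 with library size alone) and, with 1 library left out, for values already near 0: Zeb1 in KO vs. Ctrl (-0.24 to 0.07, above 0 without KO replicate 2, 0.03, and without Ctrl replicate 1), Zeb2 in KO vs. Ctrl (-0.50 to 0.10, above 0 without Ctrl replicate 2) and Zeb2 in KO vs. CreCtrl (-0.11 to 0.06, above 0 without KO replicate 1). Where a filter or a library was changed, fewer or more genes and samples entered the test, and the cause of the other changes was not tested.

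The ratio of keratin to vimentin without lengths, in counts, was 0.833 in WT and 12.9 in their KO libraries, 3.31 in Ctrl and 7.96 in KO, and 4.75 in CreCtrl and 9.50 in KO.

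For libraries with the same replicate number, correlations of their deviations were -0.018, 0.073 and 0.185 for WT, -0.006 for both Ctrl pairs and 0.132 for both CreCtrl pairs. Those of WT set libraries with different numbers ran from -0.16 to 0.073. With 2 libraries in a group the values of a set can differ only in sign. This check therefore cannot decide whether the numbers pair the mice. With the replicate block, 9, 0, 4 and 9 members were called in KO vs. WT, KO vs. Ctrl, KO vs. CreCtrl and over all sets. The differences of the keratins in the Ctrl and CreCtrl sets, with 2 libraries in a group, were not called. Without CreCtrl replicate 1 the log2 difference of Krt8 in KO vs. CreCtrl was 0.73. S100a4 had at most 22 counts in a library.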
